A study of Mus musculus with 12 samples.

Results

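The loss of exons 6 and 7 of Shank2 was examined in the hippocampi of 6 mice, 3 knockouts and 3 wild-type littermates, out of 12 mice sequenced in the whole series. The groups were taken from the genotype in the labels. The knockouts (KO776, KO777 and KO864) carry the deletion of both exons, and the wild types (WT778, WT809 and WT865) are the controls of that deletion. All 6 are male and have a strain background of mixed C57BL/6J and C57BL/6N. The labels give an age of 8 to 15 weeks for the mice used in behavioural experiments and no separate age for those sequenced, and no dose, Cre driver or transgene. The other 6 mice are 3 knockouts and 3 wild types of a line without exon 7 alone. They serve here for scaling, filtering, the estimate of spread, tests of the difference between the lines and values given for comparison. Each mouse has its own number, so the spread between replicates is a spread between animals and their libraries.

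Shank2 is one of 3 Shank proteins, large scaffolds of the postsynaptic density at excitatory synapses. Shank proteins bind Dlgap proteins, which tie them to the PSD-95 family and so to NMDA receptors, and Homer proteins, which tie them to metabotropic glutamate receptors. The hippocampus holds dentate granule cells, pyramidal cells of CA1 to CA3, interneurons and glia, and it borders on the choroid plexus, ependyma and meninges. In bulk tissue, a lower value for a gene can mean fewer cells of a type or less RNA per cell, and the 2 cannot be told apart.

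The deleted exons are shown because they define the genotype. In the Shank2 transcript of GENCODE M21 with 16 exons, exon 6 (chr7:144285055-144285137, plus strand, GRCm38/mm10) holds 83 bases and exon 7 (chr7:144286642-144286766) holds 125, and both are wholly coding. The labels do not name the transcript behind their exon numbers, and the same 2 exons are numbers 15 and 16 of 23 in a longer transcript. They are printed 5′ to 3′ in lower case, with no part marked:
Shank2 exon 6: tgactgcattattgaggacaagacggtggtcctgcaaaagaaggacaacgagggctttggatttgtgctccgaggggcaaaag
Shank2 exon 7: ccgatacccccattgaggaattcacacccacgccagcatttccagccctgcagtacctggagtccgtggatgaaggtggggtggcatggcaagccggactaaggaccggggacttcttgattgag
Together they make up 208 bases, or 2.55% of the 8169-base transcript, and 208 leaves a remainder of 1 on division by 3. Read from its start codon, the full transcript runs for 1472 codons to the first stop. Without both exons it runs for 253, of which the last 15 follow the end of exon 5. Without exon 7 alone it runs for 267. These lengths were read from the annotated sequence, and no exon-level value was measured.

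Shank2 mRNA fell in the knockouts. Shank2 (ENSMUSG00000037541, chr7:144001928-144424494, plus strand) was at 14.4, 13.8 and 14.9 scaled FPKM (fragments counted relative to transcript length and library size, brought to a common scale between libraries) in the wild types WT778, WT809 and WT865. The knockouts KO776, KO777 and KO864 had 6.22, 7.02 and 6.15. The 3 knockouts lay close together below the 3 wild types, and the gap between the genotypes was wider than the range within either. Mean levels were 14.4 ± 0.576 in the wild types and 6.46 ± 0.483 in the knockouts (SD, n = 3 each), a mean change of -55.1%. On the log2 scale the difference was -1.04 (SE 0.12, 95% interval -1.30 to -0.79, limma adjusted p = 0.0111). An exact two-sided permutation test over the 20 relabellings of these mice gave p = 0.1, the smallest it can give. The limma call was lost on leaving out WT778 (adjusted p = 0.0907), WT865 (0.110) or KO776 (0.102), with the fold change between -1.02 and -1.04, and over all alternatives its adjusted p was between 0.00014 and 0.502. The 2 deleted exons are 2.55% of the transcript described above, and their own part in the lower gene-level value was not tested. Neither paralog passed the test: Shank1 had a log2 fold change of 0.04 (SE 0.13) and Shank3 one of 0.09 (SE 0.10), with overlapping genotypes.

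The values that describe the libraries were as follows. Per the file headers the tables hold FPKM with no read totals, so the depth of each library is unknown, and no counting error can be attached to a value. Between 19944 and 20334 genes were listed per mouse of this line. WT778 and KO776 belong to a set of libraries, here set A, in which the gene ENSMUSG00000095746 was not listed, while it was at 218 to 435 scaled FPKM in the other 4 mice (set B). Each genotype thus has 1 mouse in set A and 2 in set B, and changes within each set are given beside some of the results. The wild type WT865 had far lower values of choroid plexus genes than the other 5 mice, which is described with those genes. Correlations across genes were 0.981 to 0.990 between mice of the same genotype and 0.979 to 0.991 between mice of different genotypes. Of the principal components of the 6 libraries, the first (35.4% of the variance) set WT778 and KO776 apart from the rest and the second (25.9%) set WT865 at its lower end. The third (17.8%) had all 3 knockouts on one side of all 3 wild types.

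Few genes passed the test across the transcriptome. Of 14214 genes tested, 1 rose in the knockouts (0.00704% of those tested), the ribosomal protein gene Rps3a1, and 1 fell (0.00704%), Shank2 itself (limma, Benjamini-Hochberg adjusted p under 0.05). At an unadjusted p under 0.05 there were 289 genes with higher and 294 with lower means, together 583 of 14214. That share is below the 0.05 at which genes without a difference pass such a threshold. The only gene whose knockout effect differed between the 2 lines by the test of that difference was Rps3a1. For a gene without a genotype effect, 1 of the 20 relabellings of the mice puts all 3 knockouts above and 1 puts all 3 below. In 713 genes all 3 knockouts lay above all 3 wild types (5.02% of those tested), and in 896 all 3 lay below (6.3%). This split depended on the scaling: with each library rescaled to the same sum (TPM) it was 1186 above and 445 below, and the median log2 fold change over all genes moved from -0.00 to 0.05. A gap wider than the range of either genotype was found in 57 genes above (0.401%) and 92 below (0.647%). A log2 fold change over 1 in size was found in 51 genes, 42 above and 9 below. Of these, 18 and 2 had separated genotypes, and 16 of the 42 were choroid plexus markers.

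**Figure D1:**
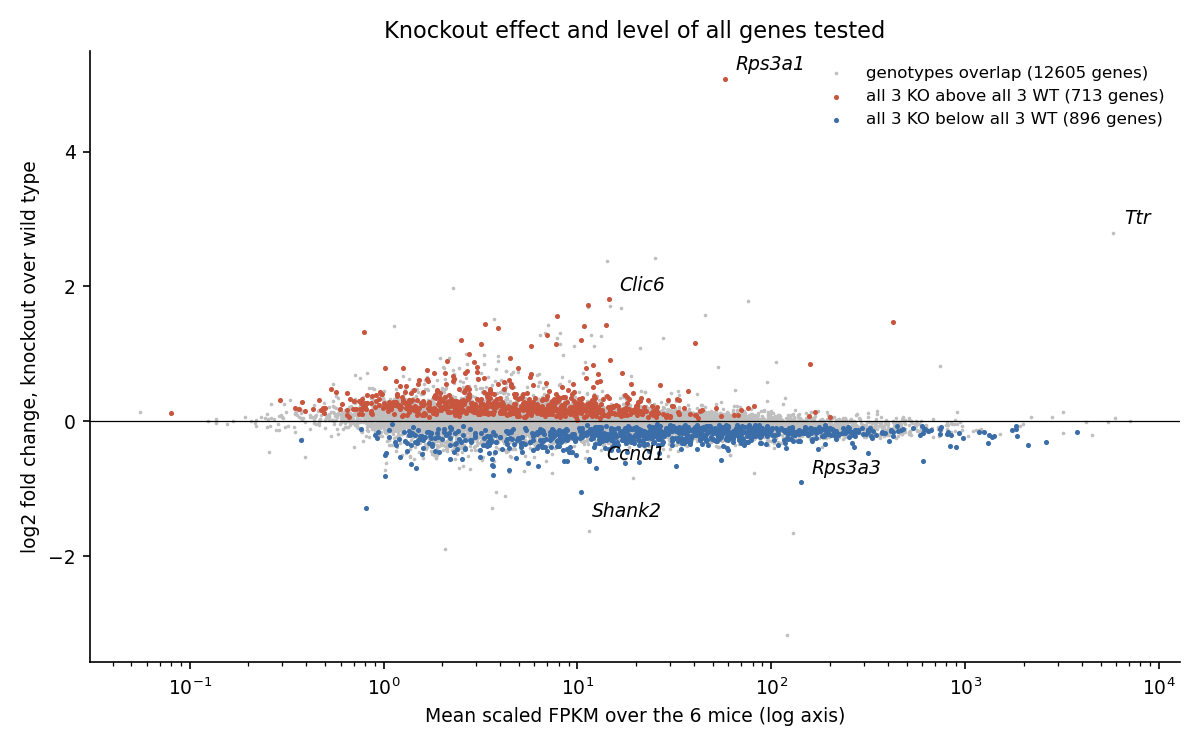
Each point is 1 of the 14214 genes tested, with its mean level over the 6 mice (scaled FPKM, log axis) and its log2 fold change, knockout over wild type; red and blue points are the 713 and 896 genes whose genotypes did not overlap. Rps3a1 at 5.08 stands alone at the top, Ttr and Clic6 are choroid plexus genes, and the blue points gather at high levels while the red points gather at low levels.

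Which side a separated gene lay on went with its level and its length. Of the 901 genes at 100 FPKM or more, all 3 knockouts lay below the wild types in 19.2% and above in 0.555%. Of the 3974 genes at 1 to 5 FPKM, the shares were 3.30% below and 7.90% above. Across the 14055 genes with an annotated length, Spearman's rank correlation of the log2 fold change with transcript length was 0.35, a description across genes of the same 6 libraries. In the fifth of genes with the shortest transcripts the median log2 fold change was -0.09, with 12.3% below and 1.85% above. In the fifth with the longest it was 0.06, with 1.96% below and 8.75% above. Lists of short or long transcripts are given below with this in view, and its part in them was tested only through the fit with the length and GC trend removed.

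Rps3a1 rose by the largest amount of any gene tested. It encodes a protein of the small ribosomal subunit (ENSMUSG00000028081, chr3:86137940-86142702, minus strand). It was at 2.66, 1.71 and 2.85 scaled FPKM in the wild types WT778, WT809 and WT865. The knockouts had 105, 113 and 122 in the order KO776, KO777 and KO864. All knockouts thus lay far above all wild types. The log2 fold change was 5.08 (SE 0.13, limma adjusted p = 6.47e-10), 4.85 in set A and 5.20 in set B. The difference between this effect and that of the exon 7 line was 5.16 (limma adjusted p = 3.17e-08). In the 6 mice of the exon 7 line, where Rps3a1 made up most of the sum of the 3 genes below, the effect was -0.08.

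Among annotated genes are 2 intronless copies of its coding sequence, Rps3a2 (chr14:88123017-88123808) and Rps3a3 (chr13:108670603-108671397). Further copies were not searched for. Over the 792 coding bases of Rps3a1 up to the stop codon, Rps3a2 was 99.5% identical (4 differences) and Rps3a3 98.9% (9 differences). A stretch of coding bases 181 to 260 is shown to make plain how much of the sequence the 3 genes share, with capitals in Rps3a2 and Rps3a3 for bases that differ from Rps3a1, and in Rps3a1 for bases at which either copy differs:
Rps3a1: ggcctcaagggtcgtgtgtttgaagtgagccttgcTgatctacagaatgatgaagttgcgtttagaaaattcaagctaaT
Rps3a2: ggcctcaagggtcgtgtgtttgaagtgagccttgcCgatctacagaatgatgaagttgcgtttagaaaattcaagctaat
Rps3a3: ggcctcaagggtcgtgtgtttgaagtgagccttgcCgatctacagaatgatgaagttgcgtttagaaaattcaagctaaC
In this stretch of 80 bases Rps3a2 has 1 difference from Rps3a1 and Rps3a3 has 2. A read from it can match several of these genes, and the sources used here do not say how such reads were assigned, so the levels of the 3 genes are uncertain. Rps3a3 was at 180, 198 and 177 scaled FPKM in the wild types and at 91.9, 102 and 101 in the knockouts, in the same order of mice. Its log2 fold change was -0.91 (SE 0.14, limma adjusted p = 0.144), which passed when the 6 mice were fitted alone (0.0231), with a library set term (0.0223) and with a pseudocount of 5 (0.0469), and ran from 0.0223 to 1 over all alternatives. Rps3a2 was at 38.5, 39.3 and 40.6 in the wild types and at 21.2, 28.2 and 24.9 in the knockouts, which gives -0.66 on the log2 scale (SE 0.19, limma adjusted p = 1). Both copies thus lay lower in every knockout than in every wild type. The sum of the 3 genes was 227 ± 10.4 in the wild types and 236 ± 16.2 in the knockouts (SD, n = 3 each), and these ranges overlapped. Rps3a1 made up 1.07 ± 0.31% of the sum in the wild types and 47.9 ± 1.46% in the knockouts. In the exon 7 line it made up 86.1 ± 2.25% in the wild types and 85.3 ± 0.97% in the knockouts.

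**Figure D2:**
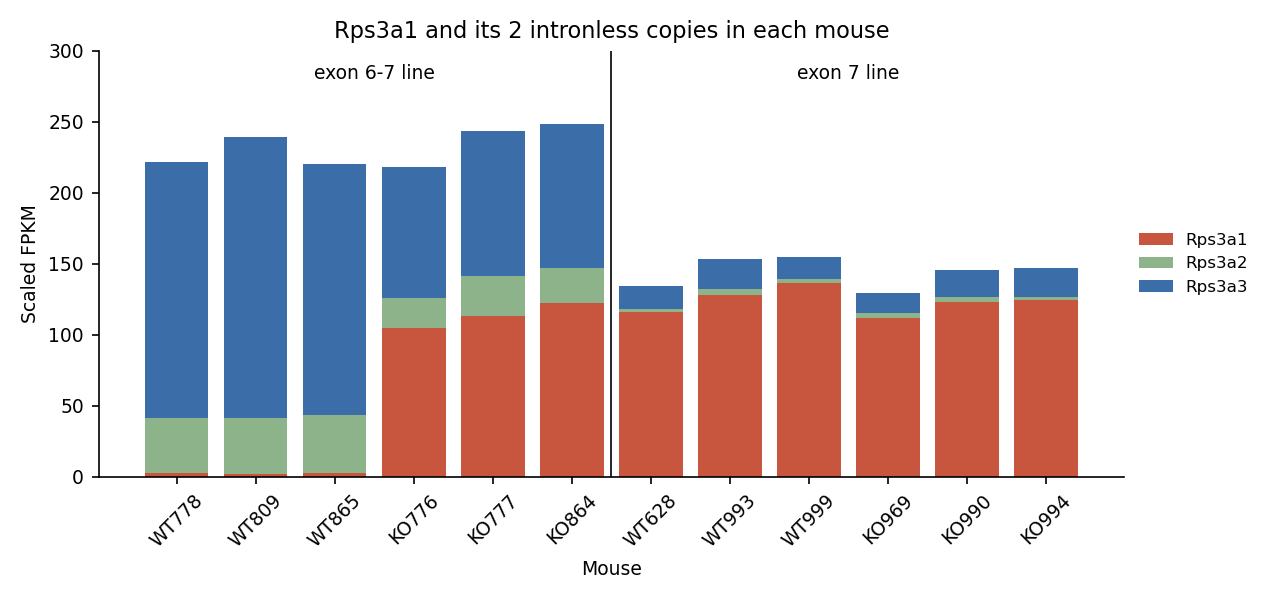
Stacked scaled FPKM of Rps3a1, Rps3a2 and Rps3a3 (vertical axis) in each of the 12 mice (horizontal axis). In the exon 6-7 line the height of the bars is alike in both genotypes (217.9 to 248.2) while the part of Rps3a1 is near 0 in the 3 wild types and near the middle of the bar in the 3 knockouts.

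The 11 further genes with the smallest p among those with all knockouts above all wild types had log2 fold changes of 0.40 or more and none passed the test. Bmp6, a ligand of the bone morphogenetic protein family, was at 2.05, 2.51 and 1.57 scaled FPKM in the wild types, in the order above, and at 3.86, 4.13 and 4.03 in the knockouts. Its log2 fold change was 0.73 (SE 0.13, limma adjusted p = 0.324), and the gap between genotypes was wider than the range of either. Its annotated exons overlap those of Txndc5 on the other strand. Atm, a kinase of the response to DNA breaks, was at 0.43, 0.37 and 0.62 in the wild types and at 1.79, 1.63 and 1.22 in the knockouts (log2 fold change 0.79, SE 0.16, limma adjusted p = 0.568). The lowest knockout was above the highest wild type by more than the range of either. Tle6, a relative of the Groucho corepressors, was at 1.87, 1.61 and 1.78 in the wild types and 3.23, 3.75 and 3.84 in the knockouts (log2 fold change 0.74, limma adjusted p = 0.926). Tgfb2, a growth factor of the TGF-beta family, was at 8.41, 8.39 and 6.97 against 10.9, 10.7 and 10.6 (0.40, limma adjusted p = 0.857). Tgfb2 was the one gene of these 11 whose genotypes were separated the same way in the exon 7 line, where its log2 fold change was 0.12.

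The others of the 11 were Pon3 (log2 fold change 0.79), a lactonase carried on lipoproteins, Car12 (0.70), a carbonic anhydrase that is also one of the 20 choroid plexus markers used here, and Cul4b (0.56), a ubiquitin ligase scaffold on the X chromosome. They also included the secreted Wnt antagonist Sfrp1 (0.55), Vat1l (0.90), the microglial receptor Fcrls (0.50) and Strip2 (0.58). Vat1l was at 11.1, 14.0 and 5.79 scaled FPKM in the wild types and at 18.2, 19.2 and 19.6 in the knockouts. Its knockouts were tightly grouped while its wild types spread widely, with WT865 the lowest, and without WT865 its log2 fold change was 0.57. In 8 of the 11 genes WT865 was the lowest of the 6 mice: Bmp6, Pon3, Car12, Tgfb2, Cul4b, Sfrp1, Vat1l and Strip2. This mouse also had the lowest choroid plexus values, and the part of adjoining tissue in these genes was not tested. In Atm, Fcrls and Tle6 another wild type was the lowest.

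Among the 12 genes with the smallest p and all knockouts below all wild types, Shank2 passed and 11 did not. Cyclin D1 (Ccnd1), which drives the entry into the cell cycle, was at 15.3, 14.8 and 16.7 scaled FPKM in the wild types and at 8.73, 9.26 and 9.78 in the knockouts. The mean change was -40.6%, with a gap wider than either range, and the log2 fold change was -0.69 (SE 0.12, limma adjusted p = 0.324; -0.74 in set A, -0.67 in set B). Cd37, a tetraspanin of leukocytes, was the most tightly grouped, at 4.40, 4.47 and 4.59 against 2.85, 2.62 and 2.75 (log2 fold change -0.55, SE 0.10, limma adjusted p = 0.324). Its annotated exons overlap those of Tead2 on the other strand. Rtkn2 was at 1.48, 1.73 and 1.62 against 0.81, 0.75 and 0.88 (-0.52, limma adjusted p = 0.926).

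Several abundant genes were in this group. Cst3, the secreted protease inhibitor cystatin C, was at 2246, 2522 and 2305 scaled FPKM in the wild types and at 1923, 1769 and 1872 in the knockouts, or -0.35 on the log2 scale (SE 0.08, limma adjusted p = 0.857). The metal-binding metallothionein Mt2 was at 839, 730 and 627 against 538, 472 and 436 (-0.60, limma adjusted p = 0.857), and Mt3, the brain-enriched member, had a log2 fold change of -0.33. In the exon 7 line Mt2 was separated in the opposite direction, at 0.44. Lgi3 (-0.40), a secreted neuronal protein, and Tmem125 (-0.50) lay below by less in set A than in set B. Mrpl44, a protein of the mitochondrial ribosome, was at 23.1, 20.9 and 20.2 against 11.7, 11.1 and 18.9. KO864 lay near the wild types for Mrpl44, and without it the gene passed the test (limma adjusted p = 0.0112), against 0.926 with it and 0.0112 to 1 over all alternatives. Mri1, an enzyme of methionine salvage, had a log2 fold change of -0.58 and was separated in the opposite direction in the exon 7 line (0.21). Lyrm9, selected for its size of change, was at 6.26, 7.21 and 10.4 against 4.30, 5.61 and 3.92 (-0.66, limma adjusted p = 1).

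**Figure D3:**
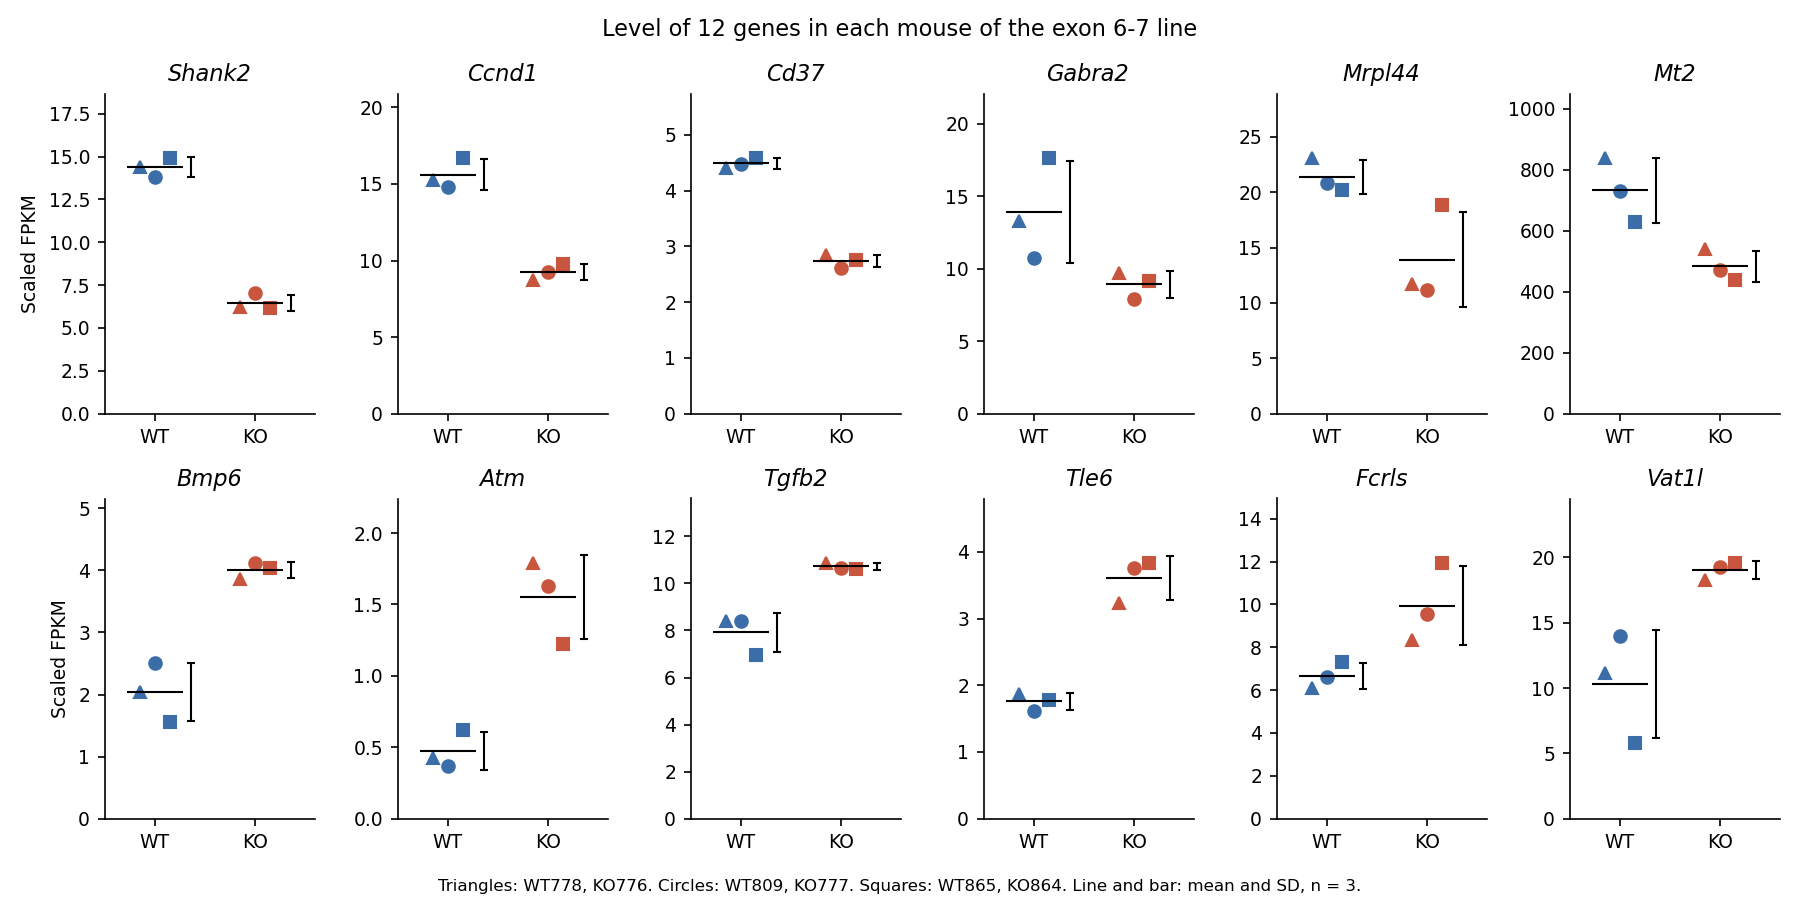
Scaled FPKM (vertical axis, from 0) of 12 genes in each of the 3 wild-type and 3 knockout mice, with the mean and SD of each genotype; of these genes only Shank2 passed the test. Cd37, Ccnd1, Bmp6 and Tle6 show gaps wider than the spread within a genotype, Mrpl44 has KO864 near the wild types, and Vat1l has WT865 far below the other wild types.

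Ccnd1 is a neighbour of Shank2, and the genes around the deletion were therefore described as a group. Of the 79 genes tested within 5 Mb of Shank2 on chromosome 7, all knockouts lay below all wild types in 13 (16.5%, against 6.3% of all genes). They lay above in 1 (1.27%, against 5.02% of all genes). Apart from Shank2 itself, which is not counted there, none passed the test, and the median log2 fold change was -0.05 (-0.01 without WT809) against -0.00 for all genes. After rescaling to TPM the counts were 7 below and 3 above, against 445 below and 1186 above of all 14214 genes. Of the 13 separated below, Cd81, Taldo1, Hras and Caly are above 100 FPKM, a level at which 19.2% of all genes were separated below. At 20 to 100 FPKM that share of all genes was 9.66%. The nearer end of Ccnd1 lies 505 kb from the end of Shank2. Its annotated last exon overlaps that of LTO1 on the other strand (LTO1 log2 fold change 0.16). It was also the 1 gene of the 13 separated the same way in the exon 7 line, with a log2 fold change of -0.72 there. The difference between the lines was 0.02 (limma adjusted p = 1). Taldo1, an enzyme of the pentose phosphate pathway 2599 kb away, was at 144, 163 and 155 scaled FPKM in the wild types and 121, 130 and 126 in the knockouts (-0.29, limma adjusted p = 1). The 1 gene above was Cdkn1c, the inhibitor of cyclin-dependent kinases p57, at 9.96, 10.6 and 5.12 against 16.1, 12.7 and 11.7 (0.64, limma adjusted p = 1), again with WT865 lowest. Of the other cell cycle genes, Ccnd2 (cyclin D2) was at 9.30, 9.06 and 9.98 against 12.2, 11.4 and 10.9 (0.26, limma adjusted p = 1). Cdk4, the kinase partner of D-type cyclins, had a log2 fold change of -0.12.

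Gabra2, the alpha-2 subunit of the GABA-A receptor, did not pass the test. It was at 13.3, 10.7 and 17.7 scaled FPKM in the wild types and at 9.70, 7.87 and 9.16 in the knockouts. The knockouts lay below the wild types with a narrow gap, since WT809 was only a little above KO776. The log2 fold change was -0.57 (SE 0.20, 95% interval -1.01 to -0.13, limma adjusted p = 1), and the exact two-sided permutation p was 0.1, the smallest possible. The difference from the exon 7 line was -0.53 (limma adjusted p = 1). Of the 12 GABA-A subunit genes tested, 0 passed, 1 was separated above (8.33%, against 5.02% of all genes) and 2 below (16.7%, against 6.3%). The median log2 fold change was 0.03, -0.04 without WT809 and -0.00 without KO864. Gabrd, the delta subunit of extrasynaptic receptors, was the other one below, at 15.4, 17.6 and 16.1 against 14.5, 14.6 and 13.9 (-0.18).

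Genes of the excitatory postsynapse had group medians near 0, and none passed the test other than Shank2. Among the 17 scaffold proteins that bind Shanks or sit beside them, 0 passed and the median log2 fold change was 0.02. Of the 17, 1 was separated above (5.88%, against 5.02% of all genes). This member was Dlg2 (PSD-93), at 7.70, 6.30 and 10.2 scaled FPKM in the wild types and 11.8, 10.4 and 10.98 in the knockouts (0.43, SE 0.13, limma adjusted p = 1). Without WT809 the log2 fold change of Dlg2 was 0.29. Homer1 had 0.26 with overlapping genotypes, and 0.12 without WT809. None of the 6 NMDA receptor subunit genes tested passed, and the median was 0.02. Grin1, the obligatory subunit, was at 155, 171 and 162 against 145, 158 and 149 (-0.11). Grin3a was the 1 of the 6 separated above (16.7%, against 5.02% of all genes), by a small amount (0.14), and 0 were separated below. Of 16 AMPA receptor subunits and auxiliary proteins 0 passed, 2 were separated above (12.5%, against 5.02% of all genes) and 0 below, with a median of -0.02. Leaving out 1 mouse turned the sign of both of these medians. The auxiliary protein Shisa6 was tightly grouped, at 8.46, 8.87 and 9.02 in the wild types and 10.998, 10.8 and 10.5 in the knockouts (0.26, SE 0.15, limma adjusted p = 1). Shisa9 had 0.18, and 0.07 without WT809. The 37 autism-associated genes tested had a median of 0.07, with 30 above 0. These have long transcripts (median 8292 bases), and the median was -0.00 with the length and GC trend removed.

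Of the gene lists, the markers of the choroid plexus, the tissue that secretes cerebrospinal fluid in the ventricles, had the largest median difference. All 20 choroid plexus markers had a log2 fold change above 0, 11 were separated above (55.0%, against 5.02% of all genes) and 0 below, and 0 passed the test. Their median was 1.35 (1.05 in set A, 1.51 in set B). The 3 knockouts were alike in the sum of the 20 markers, at 8281, 9147 and 7476 scaled FPKM. The wild types were not: the sum was 4312 in WT778, 9252 in WT809 and 126 in WT865. In this sum, made up mostly of Ttr in every mouse but WT865, WT809 lay above every knockout, WT778 below them and WT865 far below all others. Marker by marker, WT809 lay below all 3 knockouts in 12 of the 20 and WT778 in 19. Transthyretin (Ttr), the main secreted protein of this epithelium, was at 3934, 8494 and 35.6 in the wild types and 7479, 8291 and 6615 in the knockouts (log2 fold change 2.80, SE 1.43, limma adjusted p = 1). Its genotypes overlapped because of WT809. The log2 fold change of Ttr was 0.36 without WT865 and 4.29 without WT809.

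In all 20 markers WT865 was the lowest of the 6 mice. Without it the median log2 fold change was 0.61 and 0 markers had a log2 fold change over 1, against 16 of 20 with it. All 20 markers were still above 0 without WT865, and 11 were separated above. Fewer mice are more easily separated, and 1686 of all 14214 genes were separated above in that fit. Clic6, a chloride channel protein, was at 8.39, 17.0 and 0.32 in the wild types and 21.3, 20.1 and 19.8 in the knockouts (1.82, SE 0.67, limma adjusted p = 1). The potassium channel subunit Kcne2 was at 6.14, 14.1 and 0.23 against 15.1, 15.6 and 17.1 (1.73). Enpp2 (autotaxin) was at 264, 491 and 66.0 against 552, 570 and 586 (1.47). In these members WT809 came closest to the knockouts and WT865 was lowest. Kl (1.43), Slc4a5 (1.38), F5 (1.20) and Slc13a4 (1.15) had the same order of wild types. Without WT865 the log2 fold changes of these 7 markers, Clic6 to Slc13a4, were 0.66 to 0.79. None of the markers was at 0 in any mouse. Mfrp, which is not on the list, also had WT809 as the highest and WT865 as the lowest wild type (log2 fold change 1.56, or 0.74 without WT865). It shares annotated exons with C1qtnf5 on the same strand.

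**Figure D4:**
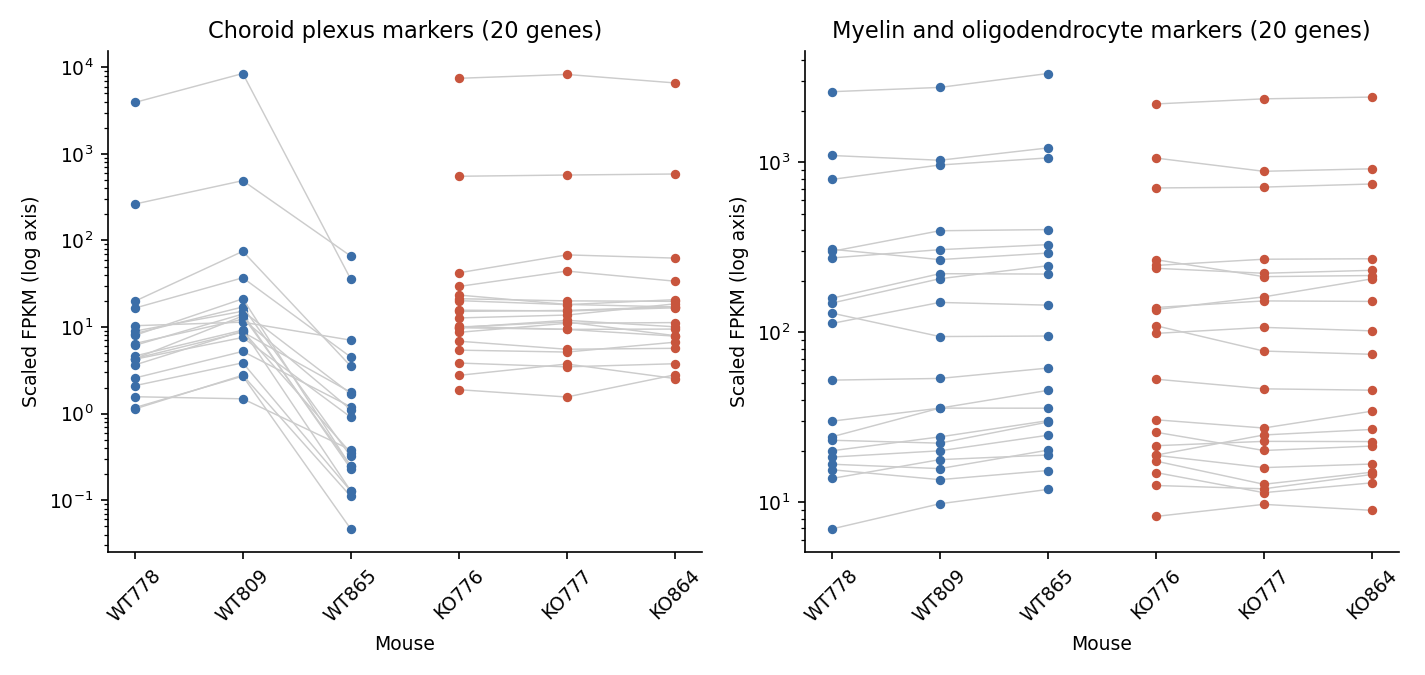
Scaled FPKM (log axis) of 20 choroid plexus markers and 20 myelin and oligodendrocyte markers in each mouse of the exon 6-7 line, with lines joining a gene within a genotype. The choroid plexus markers drop in WT865 and are alike in the 3 knockouts, and the myelin markers are somewhat higher in WT809 and WT865 than in the knockouts.

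Markers of other tissue at the surface of the hippocampus went partly with the choroid plexus. Of 14 meningeal and fibroblast markers 13 were above 0, 7 were separated above (50.0%, against 5.02% of all genes) and 0 passed. The median was 0.27, or 0.28 without WT865, 0.19 without WT778 and 0.38 without WT809. With a filter of 5 FPKM, 5 of the markers were tested and 2 were separated above, against 402 of all 10222 genes. Their sum was 137 to 215 scaled FPKM in the wild types and 201 to 237 in the knockouts, and WT809 lay within the range of the knockouts. Ogn, a proteoglycan of connective tissue, was at 2.34, 2.57 and 1.05 against 3.71, 4.26 and 4.22 (0.80, SE 0.22, limma adjusted p = 1). Slc22a6, an organic anion transporter, was at 1.23, 1.20 and 0.86 against 2.61, 2.43 and 1.74 (0.63, limma adjusted p = 0.926). Collagen Col1a2 had 0.51, Fmod 0.56 and decorin (Dcn) 0.19, the latter at 33.4, 32.2 and 33.7 against 37.4, 38.7 and 37.7. Of 10 ependymal markers 9 were above 0 and 0 were separated, with a median of 0.35, or 0.20 without WT778. The median deviation of WT809 on this list (0.16) lay within the range of the knockouts (-0.04 to 0.31). Dynlrb2, a dynein light chain, had 0.89 with overlapping genotypes, and 0.58 without WT778. Of 14 endothelial and pericyte markers 3 were separated above (21.4%, against 5.02% of all genes), with a median of 0.07, or 0.02 without WT778. The 5 blood markers had a median of 0.87 in set A and -0.29 in set B, with WT778 the lowest mouse. Among 16 genes of the bone morphogenetic protein pathway, whose ligands Bmp4, Bmp6 and Bmp7 are also made by meninges and choroid plexus, 2 were separated above (12.5%, against 5.02% of all genes), Bmp6 and Bmp4. Bmp4 was at 3.19, 3.31 and 3.18 against 3.91, 3.86 and 4.01 (0.22, limma adjusted p = 1), and Bmp7 (0.45) overlapped.

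Myelin genes lay lower in the knockouts in every one of the 20 markers measured, and 0 passed the test. The median log2 fold change was -0.30, 8 of the 20 were separated below (40.0%, against 6.3% of all genes) and 0 above. Members such as Mbp and Cnp are above 100 FPKM, a level at which 19.2% of all genes were separated below. The sum of the 20 markers was 6151, 6649 and 7637 scaled FPKM in the wild types and 5435, 5375 and 5559 in the knockouts. The sums did not overlap, and WT865, the wild type with the lowest choroid plexus values, had the highest. The median was -0.13 in set A and -0.36 in set B, and -0.23 without WT865. Without WT865, 17 of the 20 markers were below 0 and 3 above, and without KO777, 19 were below and 1 above. After quantile normalization the median was -0.20 with 6 separated below, against 728 of all 14214 genes. After rescaling to TPM 19 of the 20 were below 0 and 7 separated below, against 445 of all 14214 genes. Cnp, an enzyme of myelin, was at 299, 396 and 402 against 247, 269 and 271 (-0.47, SE 0.12, limma adjusted p = 0.992). Mog, a glycoprotein on the myelin surface, was at 113, 150 and 144 against 98.4, 107 and 102 (-0.39, SE 0.11, limma adjusted p = 1). Both had WT778 as the wild type closest to the knockouts. Mobp had -0.37 and Mbp, the myelin basic protein, -0.31 (2607, 2764 and 3337 against 2209, 2367 and 2425), or -0.20 without WT865. For precursor cells of the lineage, the 9 markers tested had a median of -0.11 with 1 separated below (11.1%, against 6.3% of all genes).

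Of 19 microglia markers 16 were below 0, 3 were separated below (15.8%, against 6.3% of all genes) and 1 above (5.26%, against 5.02%). After rescaling to TPM 1 of the 19 was separated below, against 445 of all 14214 genes. The median was -0.14, and -0.08 without WT865. Aif1 (Iba1) was at 8.46, 11.4 and 11.6 scaled FPKM in the wild types and 7.12, 7.75 and 8.39 in the knockouts (-0.38, limma adjusted p = 1). Its lowest wild type lay just above its highest knockout. Trem2, a lipid receptor, had -0.42 with overlapping genotypes, and -0.27 without KO776. Fcrls was the 1 separated above. The 12 astrocyte markers had a median of -0.02 (0.05 without WT865), and S100b among them had -0.34 with overlapping genotypes.

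**Figure D5:**
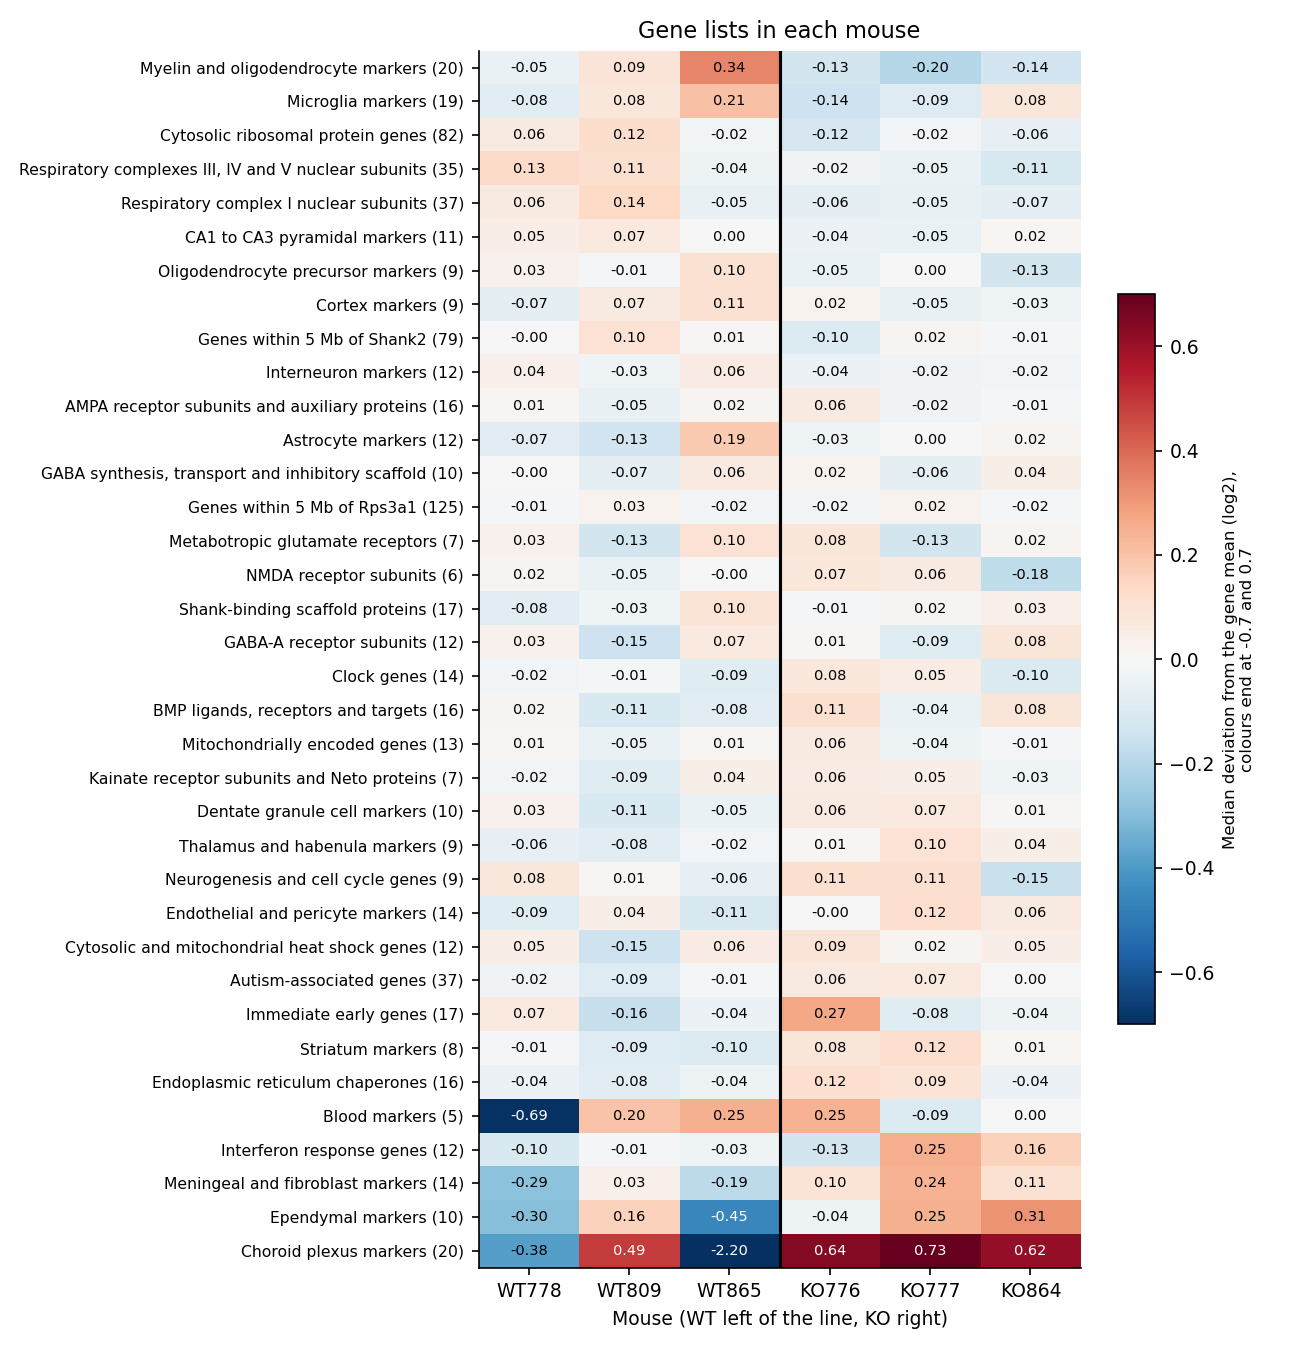
Median deviation of each gene list (rows, number of genes tested in brackets) from the gene means in each of the 6 mice (columns), in log2 units, ordered by the median log2 fold change. The choroid plexus list runs from -2.20 in WT865 to 0.73 in KO777, and the myelin list from 0.34 in WT865 to -0.20 in KO777. The Shank-binding scaffold, AMPA receptor, kainate receptor, GABA synthesis, pyramidal and interneuron lists stay within 0.1 of 0 in every mouse. Other neuronal lists go past this, among them NMDA receptors (-0.18 in KO864), GABA-A receptors (-0.15 in WT809) and immediate early genes (0.27 in KO776).

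Activity-regulated genes were highest in KO776. Of 17 immediate early genes tested 14 were above 0, 2 were separated above (11.8%, against 5.02% of all genes) and 1 below (5.88%, against 6.3%), and 0 passed. The median log2 fold change was 0.10, but it was 0.04 without WT809 and turned to -0.02 without KO776. Fos was at 3.18, 3.14 and 3.45 scaled FPKM in the wild types and 7.47, 4.05 and 5.43 in the knockouts (0.61, SE 0.25, limma adjusted p = 1). Arc, which regulates the endocytosis of AMPA receptors, was at 33.8, 24.3 and 36.0 against 52.3, 36.5 and 39.8 (0.44, SE 0.31, limma adjusted p = 1). The log2 fold change of Arc was 0.29 without KO776 and 0.27 without WT809. KO776 was the highest mouse for both, and its median deviation over the list was 0.27 against -0.08 and -0.04 in the other knockouts. Egr3 had 0.35, or 0.23 without WT809, and overlapped, and the pentraxin Nptx2 lay on the other side, at 18.6, 20.7 and 17.2 against 15.2, 15.4 and 16.2 (-0.25).

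Markers of hippocampal cell types had medians between -0.12 and 0.06, and none passed the test. The 10 dentate granule cell markers had a median of 0.06, with 2 separated above (against 5.02% of all genes): Dsp (0.25) and Lct (0.27). The 11 pyramidal cell markers had a median of -0.12, with 2 separated below (18.2%, against 6.3% of all genes) and 1 above (9.09%, against 5.02%). The median was -0.03 without WT778, and 0 were separated below after quantile normalization or rescaling to TPM. Of all 14214 genes, 728 and 445 were separated below in these 2 settings. Wfs1, a marker of CA1, was at 60.8, 65.9 and 63.1 against 58.8, 54.1 and 61.2 (-0.12, or -0.07 without KO777), and the pentraxin Nptx1 at 80.2, 70.2 and 75.0 against 89.9, 85.7 and 87.9 (0.22). Of 12 interneuron markers, 2 were separated below (16.7%, against 6.3% of all genes) and the median was -0.02. Parvalbumin (Pvalb), of fast-spiking interneurons, was at 60.8, 66.5 and 62.5 scaled FPKM in the wild types and 47.3, 48.4 and 50.5 in the knockouts. The gap was wider than either range, and the log2 fold change was -0.37 (SE 0.15, limma adjusted p = 1). The neuropeptide gene Cck had a mean of 860.5 against 752.3 (-0.19, limma adjusted p = 1) and no overlap.

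Genes of ribosomes and respiration, which are abundant and short, had medians slightly below 0, by an amount that depended on the scaling. Of 82 cytosolic ribosomal protein genes tested, Rps3a1 rose, 0 fell, 74 were below 0 and 10 were separated below (12.2%, against 6.3% of all genes and 12.3% of the fifth with the shortest transcripts). Their median was -0.13, or -0.07 without WT809. Rps16 was at 120, 118 and 107 scaled FPKM against 107, 89.1 and 80.1 (-0.32). Of 37 nuclear genes of respiratory complex I, 36 were below 0 and 5 were separated below (13.5%, against 6.3% of all genes, median -0.12). Of 35 genes of complexes III to V, 34 were below 0 and 8 were separated below (22.9%, against 6.3% of all genes, median -0.12). At 100 FPKM or more, 19.2% of all genes were separated below. Ndufa2 of complex I had -0.27. Cox5a of complex IV was at 414, 391 and 373 against 364, 364 and 331 (-0.15). The median transcript lengths of the 3 lists were 1100, 1046 and 1001 bases, against 3296 bases for all genes. With the length and GC trend removed their medians were -0.07, -0.08 and -0.07. The numbers separated below were then 7, 3 and 4, against 733 of all 14055 genes. After quantile normalization 61 of 82, 28 of 37 and 21 of 35 were below 0, with medians of -0.03, -0.04 and -0.02. In that setting 4, 1 and 2 were separated below, against 728 of all 14214 genes. After rescaling to TPM 7, 2 and 2 were separated below, against 445 of all 14214 genes. The 13 genes of the mitochondrial genome had a median of 0.05, or -0.05 without KO776.

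Lists of stress genes had medians above 0, with members on both sides in some. Of 16 endoplasmic reticulum chaperones 12 were above 0 and 4 below, and 3 were separated above (18.8%, against 5.02% of all genes). Their median was 0.13. After quantile normalization 7 of the 16 were separated above, against 601 of all 14214 genes. The disulfide isomerase Pdia4 was at 17.2, 18.1 and 20.1 scaled FPKM against 21.5, 24.4 and 22.1 (0.28, limma adjusted p = 1). Hspa5 (BiP) was at 111, 92.4 and 106 against 156, 131 and 109 (0.35, or 0.22 without KO776), where KO864 lay among the wild types. Of 12 cytosolic and mitochondrial heat shock genes 7 were above 0 and 5 below, 0 were separated, and the median was 0.07, or 0.02 without KO864. The small heat shock protein Hspb1 had the highest value among them, 0.66 with overlapping genotypes, and 0.38 without WT865. All 12 interferon response genes tested were above 0 (9 after quantile normalization) and 1 was separated above (8.33%, against 5.02% of all genes). Their median was 0.15, but -0.10 in set A and 0.31 in set B. The separated member was Irf9, a subunit of the interferon-activated factor ISGF3, at 3.33, 4.17 and 3.12 against 5.94, 6.14 and 4.49 (0.52, SE 0.14, limma adjusted p = 1). Its exons overlap those of Rnf31 on the same strand.

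Genes listed in one genotype alone were few and short. Snord15b, a small nucleolar RNA, was at 9.65, 6.12 and 9.61 FPKM as deposited in the wild types and not listed in any knockout, nor in any mouse of the exon 7 line. It was left out of the main fit as a small RNA, and with small RNAs kept it passed the test beside Rps3a1 and Shank2. Gm27544 (7.89, 8.01 and 15.5) and the pseudogene Gm15452 (0.88, 3.28 and 1.003) were also listed only in the wild types of this line, and the pseudogene Gm12941 only in its knockouts (1.09, 2.78 and 1.18). Each of these annotated transcripts is 240 bases long or shorter, and Gm15452 and Gm12941 were both listed in 4 of the 6 mice of the exon 7 line. Gm27544 was listed in 1 mouse of that line, the knockout KO994 (13.1 FPKM as deposited). A gene that was not listed, and so set to 0, may be a failed estimate, so no fold change is given.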

How the data were processed

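Per the labels' protocols, TRIZOL was used to extract RNA, poly(A) RNA was selected, and TruSeq libraries were cut from a gel by size. Tools named in the submitters' processing notes are CASAVA, GSNAP and Cufflinks, with the build mm10. The authors deposited 1 table of FPKM per mouse, with Ensembl release 74 identifiers per the file headers, and listed only genes above 0. How reads were counted, whether strand was used and how reads with several matches were treated is not stated in the sources used here. Relative depth could not be recovered from low values, since at most 30.5% of their ratios lay within 0.1 log2 units of the mode.

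Genes not listed were set to 0, scaling factors were medians of ratios over 12511 genes, and the 108 small RNA genes were left out because FPKM is unstable for transcripts shorter than fragments. The filter was a mean over the 12 libraries of 1 FPKM or more, which left 14214 genes. These were fitted on log2(scaled FPKM + 1), which understates the change of low genes, with limma 3.58.1 (limma-trend) in R 4.3.3. The fit had 4 group means and 1 spread (8 residual degrees of freedom). Tests were two-sided, adjusted by Benjamini-Hochberg over all genes, at a threshold of 0.05. On simulated data it was tested whether known changes were recovered. Sequences, positions and lengths were read from GENCODE M21, whose build GRCm38 is that of mm10. Positions are 1-based.

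The mice were the 6 of this line. The gene lists and alternatives, and the rule for naming genes, were chosen with earlier results of these data known. The rule took Shank2, Gabra2 and the genes past the threshold. It also took the 12 genes with the smallest p in each direction among separated genes, members of lists with the smallest p, genes listed in one genotype alone, and the largest changes at 5 FPKM or more, up to 6 in each direction. Not all that it selects is printed. Taldo1, Cdkn1c, LTO1 and the sums of the Rps3a genes were chosen after their values were seen, as were the alternatives with small RNAs kept and with protein-coding genes alone. Python 3.11.15 and matplotlib 3.10.9 made the tables and plots.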

Additional observations from a re-analysis of the deposited data

Results flagged for a closer look

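In Rps3a1 the effect of the exon 6-7 deletion differed from that of the exon 7 deletion by 5.16 on the log2 scale, by the test of the difference itself (limma adjusted p = 3.17e-08). In 4 further genes of the 79 named all knockouts lay on one side of all wild types in this line and on the other side in the exon 7 line, and the difference did not pass its test in any of them. The difference of the log2 fold changes was -1.04 for Mt2 (limma adjusted p = 0.608), -0.79 for Mri1, -0.38 for Cox5a and 0.28 for Shisa9 (each with limma adjusted p = 1).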

How the results depend on the processing

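Over 19 alternatives Rps3a1 passed the test in all and Shank2 in 15. Shank2 lost the call with set B mice alone (log2 fold change -1.02, limma adjusted p = 0.502) and without WT778, WT865 or KO776, and leaving out 1 mouse in turn moved its log2 fold change between -1.10 and -1.01. Against 2 genes past the threshold there were 5 with no filter on low values, 1 with set B mice alone and 1 to 6 with 1 mouse left out (6 without KO864, 5 without WT809, 1 without WT778, WT865 or KO776). Genes whose effect differed between the lines numbered 1, but 2 with a pseudocount of 0.1, with the length and GC trend removed or with small RNAs kept, and 1 to 3 with 1 mouse left out (3 without KO864). The cause was not tested. Genes with all knockouts above all wild types numbered 713, but 402 with a filter of 5 FPKM, 1186 as TPM, 2347 with set B mice alone and 1170 to 1694 with 1 mouse left out. Those below numbered 896, but 445 as TPM, 2762 with set B mice alone and 1316 to 1953 with 1 mouse left out. Fewer mice are more easily separated, and fewer genes pass a stricter filter. Of 79 named genes, 1 changed the sign of its log2 fold change in any alternative, Shank1 (-0.020 with set B mice alone). Of 722 medians of gene lists, 36 moved by more than the spread between replicates. Leaving out 1 mouse moved the log2 fold change by over 1.5 times in 23 of the 79 genes and the median in 33 of the 38 lists, and turned the sign of the median in 10 lists, whose medians were at most 0.15 in size. No paired analysis was run. Each mouse number occurs in 1 group only, and the litter of a mouse was not used. No depth is known, so whether a gene at low FPKM could have shown a change is not known either.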
